A study of Mus musculus with 6 samples.

Results

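The genes described here are Trp53, the mouse gene of the tumour suppressor p53, its negative regulators Mdm2 and Mdm4, and 7 genes that p53 switches on after DNA damage or other stress: Ccng1, Gadd45a, Plk2, Zmat3, Phlda3, Tnfrsf10b and Perp. They were taken by name, and all 10 were among the 14883 genes of the table. For 9 of them the counts were high enough for a test, and 12377 genes were tested in all. The samples were B16F10luc2 cells, a mouse melanoma line, all grown in DMEM with fetal bovine serum on elastic plates, so a single line stands for melanoma here. In the static group (3 samples) the plates were not moved. In the stretch group (3 samples) they were stretched equally in both directions of the plane by 15% at 15 cycles per minute for 24 h, with stretch and release of equal length. The comparison asks which mRNA levels differ between stretched and still cells.

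p53 is a transcription factor that is made all the time and destroyed about as fast. MDM2 attaches ubiquitin to it, and MDM4, a relative of MDM2, binds p53 and blocks its activation of genes. Since Mdm2 is itself switched on by p53, p53 and MDM2 form a feedback loop. Damage breaks the contact between p53 and its inhibitors, after which p53 activates genes that halt division, support repair or start cell death. In melanoma the p53 gene is often intact, and a raised level of MDM4 is known as one way in which p53 is held back. Protein levels of p53 are set largely by its destruction, and mRNA levels do not show them.

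p53 binds DNA at a pair of 10-base elements, each a decamer of the same consensus, and single decamers in the promoters are shown here. The genes were chosen as p53 and genes of its pathway, so the share with a decamer is not independent of that choice. RefSeq promoter windows of GRCm38.p6, from 250 bases before to 50 bases after a start site, were at hand for 7 of the genes: Trp53, Mdm2, Mdm4, Ccng1, Gadd45a, Phlda3 and Plk2. A match to the p53 decamer consensus, which reads the same on both strands, was present in 4 of these 7, against 820 (8.29%) of the 9892 tested genes with a window. The stretches below run 5′ to 3′ on the strand of the gene, with the decamer in capitals.
Trp53: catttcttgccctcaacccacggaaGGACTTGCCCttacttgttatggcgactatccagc
Mdm2: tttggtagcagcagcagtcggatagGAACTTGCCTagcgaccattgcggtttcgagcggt
Ccng1: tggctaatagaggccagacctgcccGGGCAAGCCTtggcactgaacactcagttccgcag
Gadd45a: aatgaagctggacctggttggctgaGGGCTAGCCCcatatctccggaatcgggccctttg

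These stretches lie at chr11:69580259-69580318 (plus strand) for Trp53, chr10:117710910-117710969 (minus strand) for Mdm2, chr11:40755437-40755496 (minus strand) for Ccng1 and chr6:67037413-67037472 (minus strand) for Gadd45a. The decamers begin 75, 186, 185 and 40 bases before the start site of the window, in that order. In the windows of Mdm4, Phlda3 and Plk2 the consensus was not found, which says only that these letters are not in those windows. Only exact matches to the consensus were counted, so pairs with a mismatch were not found by this search. In the Ccng1 stretch, the bases agacctgccc directly before the decamer in capitals differ from the consensus at a single base. They were therefore not counted as part of a pair. A pair of exact decamers with at most 13 bases between them was found in none of the windows of these genes. Such a pair was found in 24 (0.0731%) of all 32851 windows. One of the 24 belonged to Cdkn1a, which encodes p21, an inhibitor of cyclin-dependent kinases, and it is shown for comparison (chr17:29090881-29090962, plus strand, both decamers in capitals).
Cdkn1a: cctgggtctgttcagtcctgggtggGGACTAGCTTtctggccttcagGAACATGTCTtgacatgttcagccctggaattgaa
These matches are descriptions of sequence, and binding was not measured. Sequence outside the windows was not read, so p53 sites that lie elsewhere are not shown.

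Libraries held 19469286 to 36351400 counts. Levels are CPM (counts-per-million) on TMM-scaled library sizes, as mean ± SD with n = 3 per group, and adjusted p values come from edgeR's quasi-likelihood test with Benjamini-Hochberg adjustment over all tested genes. A gene is said to have risen, fallen or passed where the adjusted p was under 0.05. The labels do not state whether replicates were separate cultures. The p values set each difference between groups against the spread within groups, and that spread may be only technical. The 9 melanocyte markers checked were all in the table, led by Tyrp1, and summed to 23172 to 25680 CPM in static and 20610 to 21234 CPM in stretched libraries. Of them 4 fell and 1 rose, against 25.9% and 24.9% of all tested genes. Whether these marker differences have a part in the results was not tested. Markers of fibroblasts summed to 13.3 to 18.4 CPM over 5 of 7 listed genes (Lum and Thy1 not analysed here). Those of leukocytes, epithelium and endothelium summed to at most 1.49 CPM. These sums rest on only 2 of 7, 1 of 6 and 1 of 4 listed genes, in that order. Ptprc, Epcam and Cdh5 were among the genes not analysed here. Static libraries differed more among themselves than stretched ones, with a median coefficient of variation of 5.05% in static and 3.8% in stretched libraries over all tested genes.

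Under stretch, 6 of the 9 tested genes fell (Trp53, Mdm2, Ccng1, Gadd45a, Phlda3 and Plk2), Mdm4 rose, and Zmat3 and Tnfrsf10b did not pass. Of all tested genes 25.9% fell and 24.9% rose. The median log2 fold change, stretched against static, was -0.28 over the 9 genes and 0.0038 over all tested genes. Gadd45a had a difference of 2.54-fold, while those of the other genes that passed lay between 1.14-fold (Trp53) and 1.43-fold (Mdm4). Against a null of a 1.2-fold difference (edgeR's glmTreat), Gadd45a and Phlda3 passed as lower and Mdm4 as higher. By that rule 7.38% of all tested genes were lower and 5.49% higher. The groups did not overlap in 7 genes that were lower and in 1 that was higher, against 29.4% and 29.0% of all tested genes. These are bulk samples, in which fewer cells that make an mRNA and less of it per cell cannot be told apart.

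**Figure D1:**
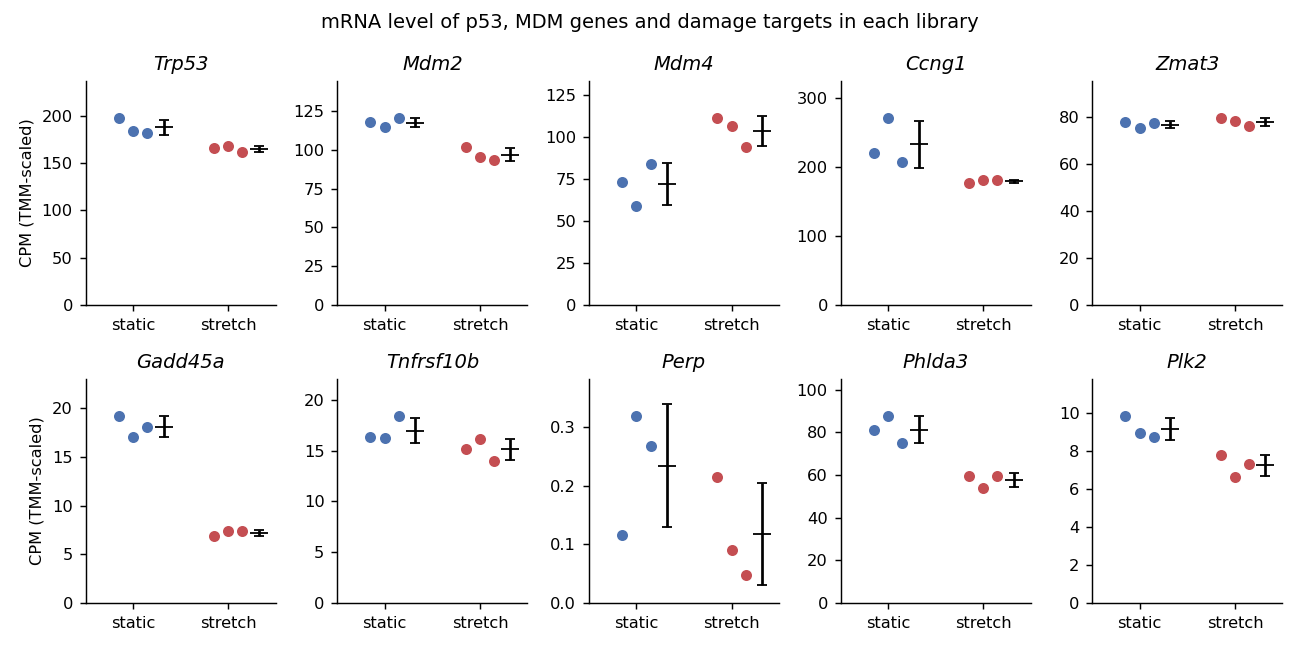
CPM (TMM-scaled, vertical axes from 0) of the 10 genes in each static (blue) and stretched (red) library, with the mean and SD of each group in black. Gadd45a lay at 17.1 to 19.2 in static and at 6.85 to 7.39 in stretched libraries, Mdm4 was the one gene higher in every stretched library, and Perp was close to 0.

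Trp53 mRNA (Entrez Gene 22059; chr11:69580348-69591873, GRCm38) was slightly lower in stretched cells. Its level was 197, 184 and 182 CPM in static replicates 1, 2 and 3 and 166, 168 and 162 CPM in stretched replicates 1, 2 and 3. Every stretched library was thus below every static one. The means were 188 ± 8.19 and 165 ± 3.04 CPM, and the log2 fold change was -0.18 with an SE of 0.039 (adjusted p = 0.00114). The size of this difference depended on the scaling: it was -0.12 with library size alone and -0.11 (adjusted p = 0.0271) with an offset for GC content and transcript length. Of all tested genes, 48.1% had a larger change in either direction, so the size of the change of Trp53 was close to the median.

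Mdm2 and Mdm4 went opposite ways. Mdm2 (Entrez Gene 17246; chr10:117688875-117710758), the gene of the ubiquitin ligase of p53, was at 118, 114 and 120 CPM in the static libraries and at 101, 95.0 and 93.6 CPM in the stretched ones. The groups did not overlap, and Mdm2 fell 1.21-fold (log2 fold change -0.28, SE 0.041, adjusted p = 5.21e-05). Mdm4 (Entrez Gene 17248; chr1:132986105-133030587) was at 73.4, 59.0 and 83.9 CPM in the static libraries and at 111, 107 and 94.0 CPM in the stretched ones. The lowest stretched library was above the highest static library, and Mdm4 rose 1.43-fold (log2 fold change 0.52, SE 0.089, adjusted p = 0.000207). It ranked 674 of 12377 from the largest gain. With the offset for GC content and length the log2 fold change of Mdm4 was 0.41 (adjusted p = 0.00039).

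The static libraries were far apart for Mdm4, with a coefficient of variation of 17.3% against 2.49% for Mdm2. Static replicate 2 was the lowest of the 3 for Mdm4 and the highest for Ccng1. Without it, the log2 fold change of Mdm4 was 0.41. The span of Mdm4 is overlapped by a pseudogene, Gm29257, and by the lncRNA Gm41953, neither analysed here. Whole spans were compared and not exons, and strand is not given. Whether reads of these genes entered the counts of Mdm4 was therefore not checked.

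Within a library, the ratio of Mdm2 to Mdm4 counts does not depend on the scaling between libraries. It was 1.601, 1.94 and 1.43 in the static libraries and 0.913, 0.891 and 0.995 in the stretched ones. All 3 stretched libraries thus held slightly fewer Mdm2 than Mdm4 counts, and all 3 static libraries held more. The mean log2 ratio was 0.72 ± 0.22 in static and -0.10 ± 0.084 in stretched cells, and so 1.76-fold lower under stretch. An exact two-sided permutation test gave p = 0.1, the smallest value that 3 against 3 samples allow. Per kilobase of the longest transcript, Mdm2 stayed above Mdm4 in every library, by 3.23 to 4.37 times in static and 2.01 to 2.25 times in stretched cells.

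**Figure D2:**
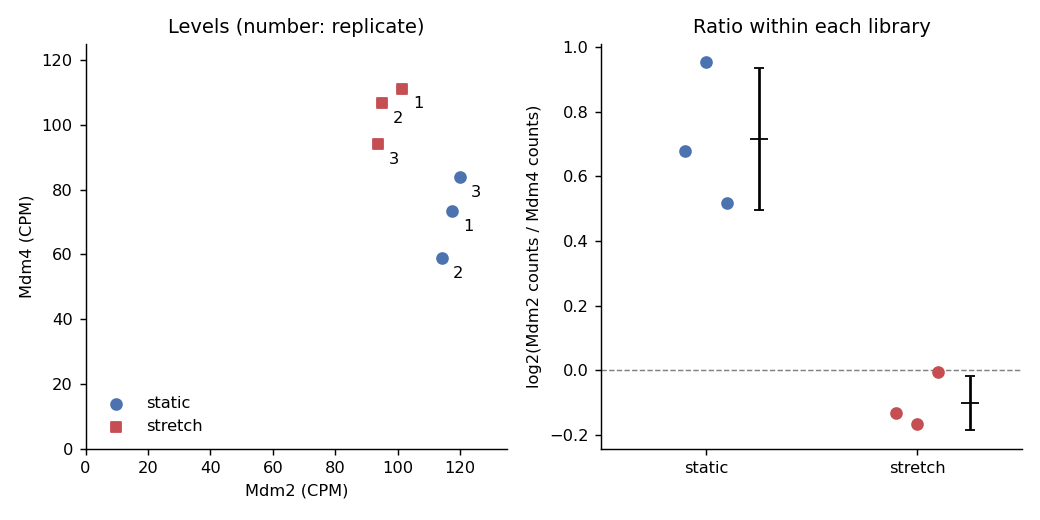
Left, Mdm4 against Mdm2 in CPM for each library (circles static, squares stretched, numbers replicates); right, the log2 ratio of Mdm2 to Mdm4 counts in each library, with the mean and SD of each group in black. The log2 ratio lay between 0.52 and 0.95 in static libraries and between -0.17 and -0.0066 in stretched ones.

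Gadd45a had the largest difference of these genes. It encodes a small protein that binds PCNA and the CDK1 kinase and takes part in cell cycle arrest and repair, and besides p53 it is known to be induced by the ATF4 pathway of amino acid and ER stress. Gadd45a (Entrez Gene 13197; chr6:67035096-67037407) was at 19.2, 17.1 and 18.05 CPM in the static libraries and at 6.85, 7.38 and 7.39 CPM in the stretched ones. The lowest static value was more than double the highest stretched value. Its log2 fold change was -1.34 (SE 0.078, adjusted p = 5.1e-09), which ranked 42 of 12377 from the largest loss. Under the alternatives tried it stayed between -1.38 and -1.28. The lncRNA E230016M11Rik overlaps Gadd45a over 809 bases but had at most 23 counts in a library, against 154 to 538 for Gadd45a.

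Ccng1 and Plk2, like Gadd45a genes of growth control, fell by less. Ccng1, the gene of cyclin G1, which brings the phosphatase PP2A to MDM2, was at 220, 270 and 207 CPM in the static libraries (chr11:40748552-40755309). The stretched libraries lay close together at 177, 181 and 180 CPM, below every static library. The log2 fold change was -0.37 (SE 0.07, adjusted p = 0.000467), and -0.25 without static replicate 2, which held the highest value. Plk2, a polo-like kinase gene with a part in centriole duplication, was at 9.84, 8.94 and 8.76 CPM in the static and at 7.77, 6.66 and 7.34 CPM in the stretched libraries (chr13:110395044-110400844). The groups did not overlap, and Plk2 fell 1.25-fold (log2 fold change -0.33, SE 0.092, adjusted p = 0.0079). Without static replicate 1 the adjusted p of Plk2 was 0.0496, just under the threshold of 0.05.

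Zmat3, the gene of an RNA-binding zinc finger protein through which p53 acts on splicing, did not pass. It was at 77.7, 75.1 and 77.1 CPM in the static libraries and at 79.3, 78.1 and 76.0 CPM in the stretched ones (chr3:32334792-32365665). The groups overlapped, and the log2 fold change was 0.02 (SE 0.037, adjusted p = 0.643). Its sign depended on the processing, with -0.04 under the offset for GC content and length. The lncRNA 4930429B21Rik overlaps Zmat3 over 177 bases and had at most 40 counts in a library. Of the 9 tested genes, Zmat3 had the lowest coefficient of variation in static cells, 1.78%.

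Of the genes linked to cell death and survival signals, Phlda3 fell, and Tnfrsf10b did not pass; whether their differences are unequal was not tested. Phlda3, whose protein competes with the survival kinase AKT for membrane lipids, was at 81.4, 87.7 and 75.1 CPM in static and at 59.6, 53.8 and 59.6 CPM in stretched libraries (chr1:135766085-135769134). The groups were well apart, and Phlda3 fell (log2 fold change -0.49, SE 0.056, adjusted p = 4.55e-06). With the offset for GC content and length its log2 fold change was -0.34. Tnfrsf10b, the gene of the death receptor for TRAIL, which the ATF4 partner CHOP is also known to induce, was at 16.3, 16.2 and 18.4 CPM in static and at 15.2, 16.2 and 14.0 CPM in stretched libraries (chr14:69767472-69784411). The lowest static library, at 16.23 CPM, was just above the highest stretched one, at 16.16 CPM. Its log2 fold change of -0.17 (SE 0.075) did not pass (adjusted p = 0.0671). Without static replicate 2 it passed, with an adjusted p of 0.0352, and in the other 16 alternatives it did not. Without static replicate 3, the highest of its libraries, the log2 fold change was -0.11 (adjusted p = 0.28), and with library size scaling it was also -0.11.

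Perp, a tetraspan membrane protein gene known for its part in the desmosomes of epithelia and in p53-driven death, was barely detected. It had 3, 6 and 8 counts in the static libraries and 8, 2 and 1 in the stretched ones (chr10:18845071-18857073). That is at most 0.319 CPM in any library, and Perp did not pass the filter on low counts, so no fold is given.

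Levels of different genes can be set side by side only per length, and CPM per kilobase of the longest GENCODE M21 transcript was used for this. In static cells the order was Ccng1 (66.2), Trp53 (57.3), Phlda3 (56.7), Mdm2 (37.3), Gadd45a (14.8), Mdm4 (10.1), Zmat3 (9.83), Tnfrsf10b (5.34), Plk2 (3.28) and Perp (0.120). The ranges of Ccng1 and Trp53, of Trp53 and Phlda3, and of Mdm4 and Zmat3 overlapped, and those of the other neighbours did not. In stretched cells Gadd45a, at 5.89, stood below Mdm4 (14.6) and Zmat3 (9.98), which it had exceeded in static cells. The rest of the order was the same, and there the ranges of Ccng1 and Trp53 alone overlapped among neighbours. Lengths ran from 1223 bases (Gadd45a) to 7797 bases (Zmat3), and cells may use shorter transcripts, which would raise these values.

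The wider p53 pathway was read from 4 lists that hold none of these 10 genes: regulators and modifiers of p53, and other target genes of arrest, of apoptosis, and of repair and metabolism. Of their 60 tested genes 19 fell and 15 rose, against 25.9% and 24.9% of all tested genes. Their median log2 fold change was 0.03. With library size scaling 16 fell and 23 rose, but there the whole table moved upward: 19.4% of all tested genes fell, 33.3% rose, and the median log2 fold change over all genes was 0.064. With the offset for GC content and length 14 fell and 15 rose, where 3096 and 2803 of all 12377 tested genes did. Against the 1.2-fold null 10 fell and 1 rose, where 7.38% and 5.49% of all tested genes did. By role, of the regulators 3 of 24 fell and 9 rose, and of the other targets 16 of 36 fell and 6 rose. Whether the lists differ was not tested.

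Among the regulators, Atr, the gene of a kinase that senses stalled replication forks, was at 27.1 ± 1.17 CPM in static and 35.7 ± 0.994 CPM in stretched cells and rose 1.32-fold (adjusted p = 1.52e-05). It was the 1 regulator to pass as higher against the 1.2-fold null. With the offset for GC content and length its log2 fold change was 0.25 in place of 0.40, with an adjusted p of 0.00216. Usp7 and Usp10, genes of enzymes that remove ubiquitin from p53 and, for Usp7, also from MDM2, rose 1.14-fold and 1.13-fold. Rchy1, a ubiquitin ligase gene also known as Pirh2, fell 1.29-fold (adjusted p = 3.27e-05). Ppm1d, a p53-induced phosphatase gene that shuts off damage signals, was at 24.5 ± 0.180 CPM in static and 22.4 ± 0.434 CPM in stretched cells and did not pass (adjusted p = 0.0553). Cdkn2a, whose ARF product restrains MDM2, was not analysed here.

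Of the 7 tested targets of arrest 5 fell and none rose, against 25.9% and 24.9% of all tested genes. Their median log2 fold change was -0.40. Cdkn1a was at 224, 236 and 199 CPM in the static libraries and at 130, 128 and 129 CPM in the stretched ones, a log2 fold change of -0.76 with adjusted p = 2.2e-08. Trp53inp1, a p53-induced nuclear protein gene, fell 1.87-fold, from 66.2 ± 7.04 to 35.2 ± 1.17 CPM. Sfn, the gene of 14-3-3 sigma, fell 2.07-fold at a low level, from 5.60 ± 0.588 to 2.61 ± 0.442 CPM.

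Of the 12 tested targets of apoptosis, 5 fell and 1 rose, against 25.9% and 24.9% of all tested genes. Their median log2 fold change was -0.06. Bbc3, the gene of the BH3-only protein PUMA, fell 1.59-fold, from 12.8 ± 0.832 to 8.06 ± 0.517 CPM (adjusted p = 1.11e-05). Bax, the gene of a pore-forming protein of mitochondria, fell 1.14-fold (adjusted p = 0.00105), and Rps27l, a ribosomal protein gene, rose by a log2 fold change of 0.20. Neither passed with the offset for GC content and length (adjusted p = 0.472 and 0.957). Ei24, a gene of an ER membrane protein, fell 1.16-fold.

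In the list of repair and metabolism 6 of 17 tested genes fell and 5 rose, against 25.9% and 24.9% of all tested genes. The median log2 fold change of this list was 0.06. Ddit4 and Sesn2, inhibitors of mTORC1 signalling that ATF4 also induces, fell 3.32-fold and 2.22-fold. Without Ddit4 and Sesn2, 14 of the other 34 tested targets over the 3 lists fell and 6 rose, and their median log2 fold change was -0.04. Of all tested genes 25.9% fell and 24.9% rose. Leaving out these genes does not separate a part of p53 from a part of ATF4, which was not tested. Lpin1, a phosphatidate phosphatase gene, fell 1.87-fold, from 22.1 ± 0.445 to 11.8 ± 0.671 CPM. Gpx1, a glutathione peroxidase gene, rose 1.21-fold, from 54.8 ± 1.22 to 66.4 ± 0.425 CPM.

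**Figure D3:**
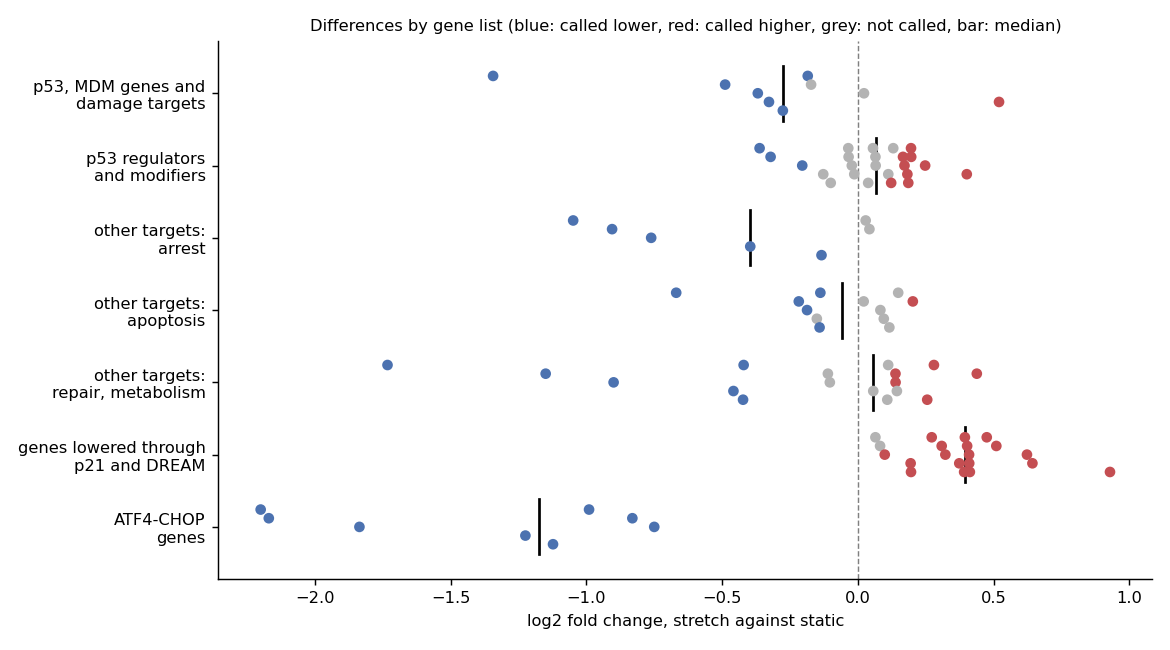
Log2 fold change (stretched against static, horizontal axis) of each tested gene, by list; blue points fell, red points rose, grey points did not pass and black bars are medians. Gadd45a is the leftmost point of the first row at -1.34, Mdm4 its rightmost at 0.52, and all 8 ATF4-CHOP genes lie left of 0.

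Another list was read beside these, chosen like the others with earlier results of these data known. It is the ATF4-CHOP list, looked at because Gadd45a and Tnfrsf10b are also known as genes of that pathway. All 8 of its members fell, against 25.9% of all tested genes, and the median log2 fold change was -1.17. The count is therefore a description only. Atf4 itself fell from 600 ± 20.1 to 357 ± 4.53 CPM, and Ddit3, the gene of CHOP, from 92.6 ± 7.44 to 39.6 ± 1.27 CPM. Atf5, Trib3 and Chac1 fell 4.59-fold, 4.50-fold and 2.18-fold. The part of this pathway in the fall of Gadd45a was not tested.

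p53 lowers many genes of division indirectly, through p21 and the DREAM repressor complex. Of 20 such genes 18 rose and none fell, against 24.9% and 25.9% of all tested genes. Their median log2 fold change was 0.39. This list too was chosen with earlier results of these data known. Cenpf, a kinetochore gene, rose 1.90-fold, Kif23, a motor protein gene of cytokinesis, 1.54-fold, and Ccnb1, the gene of cyclin B1, 1.42-fold. Cenpf varied among static libraries, at 98.6 ± 13.8 CPM, and stood at 188 ± 4.44 CPM in stretched ones. Whether these differences are linked to those of Trp53 or Cdkn1a was not tested.

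The direction of the differences held across the processing, except for Zmat3. Under the 17 alternatives, each of the 6 genes that fell had a log2 fold change below 0, and Mdm4 lay between 0.41 and 0.64. Trp53, Mdm2, Ccng1 and Plk2 did not pass against the 1.2-fold null (adjusted p = 1.0, 0.596, 0.133 and 0.401), and they passed in all the others.

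**Figure D4:**
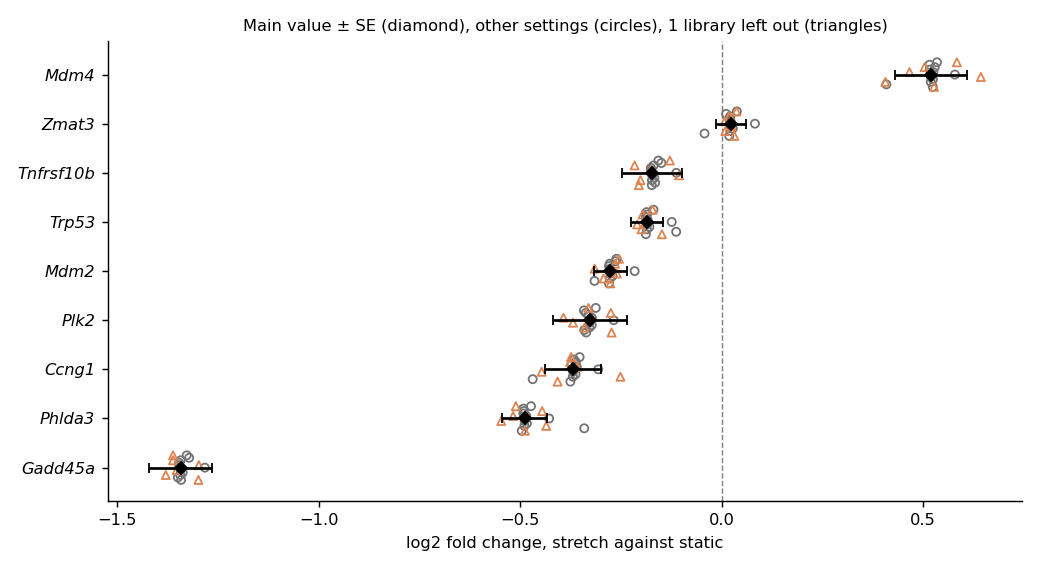
Log2 fold change (horizontal axis) of the 9 tested genes: black diamonds with SE are the main values, grey circles the other settings and orange triangles the fits with 1 library left out. Gadd45a stays between -1.38 and -1.28, and Zmat3 is the only gene with values on both sides of 0.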

How the data were processed

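Whole-number estimated counts per gene, unscaled between libraries, make up the authors' deposited table. The submitters' processing notes list Salmon 1.4.0 with mm10 and GRCm38. The sources used here name no index, no step from transcripts to genes, no rounding and no strand. Every gene had at least 10 counts over the 6 libraries. RefSeq GRCm38.p6 named 14875 of 14883 Entrez Gene numbers. Lengths and GC content are those of the longest GENCODE M21 transcript (98.0% of tested genes).

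Counts were filtered with filterByExpr (minimum count of 10), scaled by TMM (factors 0.966 to 1.02) and fitted by group with edgeR 4.0.16 in R 4.3.3 (quasi-likelihood, two-sided). A Benjamini-Hochberg adjusted p under 0.05 counts as a call. The SE is the log2 fold change divided by the root of its F statistic. The fit was also tried on simulated data, with means and a common dispersion taken from the real counts. Of 50 genes changed 1.2-fold 66% were recovered, and of 50 changed 1.5-fold 90%. False calls were 5.38% of all calls. One dispersion served all genes, so the wider static spread of genes such as Mdm4 was not simulated. Alternatives included limma 3.58.1 and DESeq2 1.42.0.

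The genes and lists were chosen with earlier results of these data known. Each list's named genes are the 3 called ones of lowest p in the direction with more calls, 1 from the opposite direction, and Cdkn1a, Ppm1d, Bbc3 and Bax. Atf4, Ddit3, Plk3, Plk4, Ccng2, Gadd45b, Gadd45g, Tnfrsf23 and Emp1 were added after their values were seen.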

Additional observations from a re-analysis of the deposited data

How the results depend on the processing

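Alternatives were RLE, upper quartile and library size scaling, no count filter, a filter of 5 CPM in 3 libraries, DESeq2, limma-voom, glmTreat against 1.2-fold, counts thinned to the smallest library, the GC and length offset (spline with 5 degrees of freedom), a replicate block, and each library left out. Of 153 values for the 9 tested genes, 147 kept direction and call, 4 lost the call, 1 gained it and 1 reversed. The reversal was Zmat3, at -0.04239 with the GC and length offset. Against 1.2-fold, 2 of the 9 genes were called lower, and of the other pathway genes 10 were lower and 1 higher. With library size scaling 23 other pathway genes were called higher, where the share of all tested genes called higher was 33.3% against 24.9%. The causes were not tested. Leaving out a library gave 6 to 7 lower genes and Mdm2 to Mdm4 log2 ratio differences of -0.918 to -0.70. No pairing by the labels' shared numbers was seen: deviations of same-numbered libraries correlated at -0.0066, -0.034 and -0.13, and no library correlated best with its own number. With 3 libraries per group this check cannot show that the samples were unpaired. With the replicate block 6 genes were lower and 1 higher. Perp was removed by the count filter; without it, 10 genes were tested, and 6 were again called lower and 1 higher.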

Other observations

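Relatives of these genes did not all move as they did. Among the polo-like kinases, Plk1 and Plk4, which act in mitosis and centriole duplication, rose 1.25-fold and 1.21-fold (adjusted p = 2.85e-06 and 8.15e-05), whereas Plk3, like Plk2 a stress-responsive member, fell from 7.26 ± 1.32 to 5.69 ± 0.485 CPM (adjusted p = 0.0157), although its groups overlapped. Ccng2, the gene of cyclin G2, fell 1.42-fold, from 10.9 ± 0.506 to 7.77 ± 0.999 CPM. Gadd45b was at 4.03 ± 0.433 CPM in static and 4.86 ± 0.478 CPM in stretched cells, and Gadd45g at 2.22 ± 0.123 and 2.62 ± 0.310 CPM. Neither passed (adjusted p = 0.0691 and 0.204), and the log2 fold changes of 0.28 and 0.24 had the sign opposite to that of Gadd45a. Phlda1, a relative of Phlda3, fell 1.18-fold, and its log2 fold change of -0.23 was -0.12 with the offset for GC content and length.

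Tnfrsf22, a mouse decoy receptor for TRAIL, fell 1.54-fold, from 29.1 ± 2.01 to 18.8 ± 1.55 CPM (adjusted p = 3.04e-06), while the death receptor gene Tnfrsf10b did not pass. Tnfrsf23, the gene of another decoy receptor, stood at 0.719 ± 0.341 CPM in static and 0.313 ± 0.0775 CPM in stretched cells (adjusted p = 0.0193). Its counts were very low, at 12, 11 and 33 in the static and 14, 5 and 7 in the stretched libraries. Static replicate 3, at 1.11 CPM, was well above static replicates 1 and 2, at 0.465 and 0.585 CPM. Whether the differences of the receptor genes differ from each other was not tested. Emp3, a tetraspan gene related in structure to Perp, fell 1.34-fold, and Emp1 rose 1.21-fold. Over all 17 tested relatives 6 fell and 3 rose, against 25.9% and 24.9% of all tested genes. Their median log2 fold change was -0.01. Plk3 is counted both among these relatives and among the targets of arrest. Trp63 and Trp73 were not analysed here.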
